A study of Trametes versicolor with 17 samples.

Results

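Of the 14296 gene models of the white-rot fungus Trametes versicolor in the deposited count tables, 156 were abundant and steady across the main batch. They were chosen by their own values. Each had at least 100 CPM (a gene's count divided by the library's total count, times 1e6) in all 12 main libraries, and its highest CPM was less than 1.5 times its lowest. All 12 libraries of the 3-day experiment entered that choice, so their values are given here as a description and no 3-day difference is tested. The 5 libraries of the 7-day batch did not enter it, and tests are confined to them.

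The study grew mycelial pellets of one strain label, ASM 8036, which the series design calls wild type, at 28 °C and 135 rpm in medium with 2% malt extract. For 3 days (main batch), 3 libraries each came from pellets given 5% of an aqueous phase. Its source was food waste in FW, salad dressing waste in SD and algal biomass in AB. Another 3 came from control pellets in medium alone. For 7 days (preliminary batch), 3 libraries came from pellets given 5% AB and 2 from controls without an aqueous phase. An aqueous phase is the water fraction left when wet waste is turned into oil under heat and pressure (hydrothermal liquefaction), and it carries dissolved organic compounds. The titles call the samples biological replicates. Whether a pellet library holds other cell states could not be checked against marker genes, since the gene table used here gives no product names.

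Transcripts that keep a constant share of a cell's mRNA while conditions change serve as internal references in quantitative PCR, where the signal of a responding gene is divided by theirs. In textbooks such genes often belong to basic cell machinery, but which genes hold level has to be measured in each species and treatment. White-rot fungi break down lignin with secreted peroxidases and laccases, families known to change strongly with the medium. CPM is a share of the counted mRNA, so it cannot show a change in total mRNA per cell or in the number of cells. A gene's share can also move because the counts of other genes change.

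None of the 156 genes carries a gene symbol. All 156 matched a locus tag of the RefSeq gene table by exact start and end, and that tag is used as the name, with positions as the deposited tables give them (genome build not given in the sources used here). The table pairs these tags with no product, so no role is stated for them. Of the 42 gene models with a symbol, mostly peroxidases and laccases, only LDO1 reached 100 CPM in all 12 main libraries. Its CPM ran from 207 to 5606, a highest over lowest of 27.1.

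Library totals were 27654678 to 35223283 counts in the preliminary batch and 15459249 to 18770043 counts in the main batch. The lowest count of any of the 156 genes in a main library was 1709, which puts the counting error of a single value at no more than 2.42% (1 SD of a Poisson count). A chi-square per gene between replicates was 187 to 1107 at 7 days and 14.2 to 109.7 at 3 days. It grows with the totals, which were higher at 7 days, so the 2 ranges are not on one scale. The totals differed less between the batches than the chi-square did, and every 7-day pair lay above every 3-day pair. Among the 7-day libraries AB replicate 2 was the farthest from its group (955 and 1107), and the 2 controls differed by 698. TMM scaling factors, which adjust for composition, at 7 days were 0.935 to 1.01 under AB and 1.24 and 0.861 in the controls.

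The floor of 100 CPM was met by 1153 genes, and the 156 steady ones were 13.5% of these. The highest over lowest CPM of the 156 started at 1.17 and had a median of 1.41. In the other 997 abundant genes its median was 2.06 and its maximum 44.6. Only 20 of the steady genes stayed below 1.3, and 81 of the 156 lay between 1.4 and 1.5. The steady share was 62 of 277 (22.4%) among abundant genes with a mean of 100 to 200 CPM and 6 of 120 (5.0%) above 1000 CPM. Part of that gradient comes with the floor itself, since a gene with a mean near 100 CPM passes it only if it varies little.

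**Figure D1:**
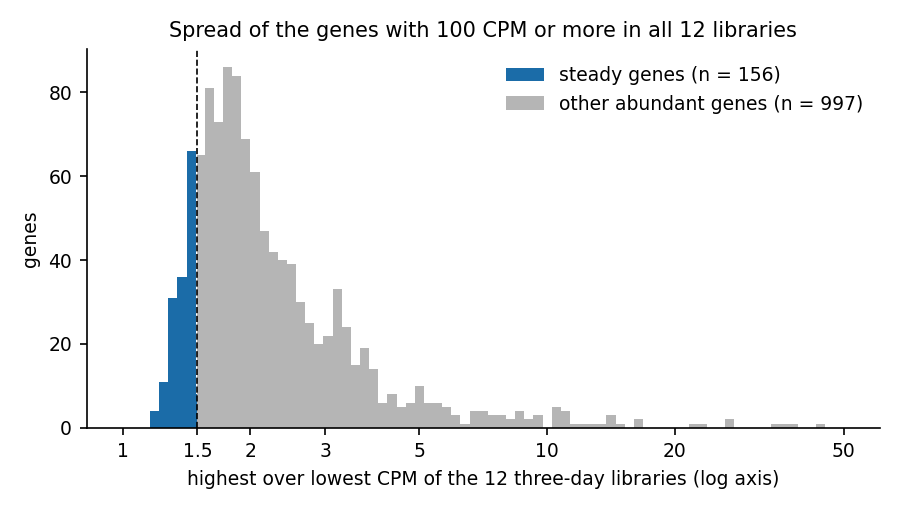
Histogram of the highest over lowest CPM of the 12 main libraries (log axis) for the 1153 genes with 100 CPM or more in all of them; steady genes are blue, other abundant genes grey, and the dashed line marks the limit of 1.5. The 156 steady genes form the left edge of a continuous distribution with no gap at the limit.

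Just inside the limit of 1.5 were TRAVEDRAFT_38325, TRAVEDRAFT_68660, TRAVEDRAFT_64856 and TRAVEDRAFT_165650, and TRAVEDRAFT_165650, the lowest of them, was at 1.49. Just outside lay TRAVEDRAFT_123662, TRAVEDRAFT_128283, TRAVEDRAFT_160026 and TRAVEDRAFT_32890, the last at 1.503. At the floor, TRAVEDRAFT_110875 had a lowest CPM of 101, and TRAVEDRAFT_114559, TRAVEDRAFT_25788 and TRAVEDRAFT_122609 had 103 to 104. Of the genes that met the limit but not the floor, TRAVEDRAFT_145739 had a lowest CPM of 98.9, gene_3470, which matched no locus tag, 98.8, and TRAVEDRAFT_119013 and TRAVEDRAFT_167552 had 97.0 and 96.8. The edges of the set are thus set by its 2 thresholds and not by a gap in the values.

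The gene with most counts in the set was TRAVEDRAFT_130016 (scaffold 9, 2330119 to 2332580, 3 exons). It had 3953, 4587 and 4158 CPM under FW, 5498, 4543 and 5643 CPM under SD and 5132, 5266 and 5275 CPM under AB, against 4577, 4576 and 4296 CPM in the controls at 3 days. FW and control libraries overlapped, and the AB libraries lay above all 3 controls by a margin inside the limit. Per kilobase of gene model it was also the highest of the 156, at 2048 CPM per kb, where the set's median was 129 CPM per kb and the other abundant genes had a median of 211 CPM per kb.

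TRAVEDRAFT_115187 (scaffold 2, 396753 to 399833) had 1909, 1957 and 2159.7 CPM under FW, 2158, 1854 and 1816 CPM under SD and 1759, 1721 and 1844 CPM under AB, against 1556, 2236 and 1946 CPM in the controls. Its lowest and its highest library were both controls, so the spread inside that group was as wide as across all 12. TRAVEDRAFT_144202 (scaffold 3, 2397735 to 2399381) had 1234, 1449.7 and 1302 CPM under FW, 1369, 1787 and 1389 CPM under SD and 1246, 1361 and 1443 CPM under AB, against 1227, 1521 and 1205 CPM in the controls, and SD replicate 2 alone stood above the other 11. Among the remaining genes of highest mean CPM, TRAVEDRAFT_31426, TRAVEDRAFT_170487, TRAVEDRAFT_142536, TRAVEDRAFT_116287 and TRAVEDRAFT_26696 averaged 1748, 1176, 1157, 939 and 818 CPM over the 12 libraries, with highest over lowest CPM between 1.32 and 1.49.

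The narrowest gene was TRAVEDRAFT_161867 (scaffold 2, 3588217 to 3589409, 7 exons). It had 152, 139 and 157 CPM under FW, 135, 154 and 149.99 CPM under SD and 134, 148 and 136 CPM under AB, against 144, 149 and 154 CPM in the controls, a highest over lowest of 1.17. All 4 groups overlapped. TRAVEDRAFT_57963 (scaffold 4, 2691685 to 2695893, 16 exons) had 121, 117 and 111 CPM under FW, 115, 117 and 111 CPM under SD and 117, 134 and 124 CPM under AB, against 114, 114 and 114 CPM in the controls, where the 3 controls lay within 1 CPM of one another and only AB replicates 2 and 3 stood above the other libraries. TRAVEDRAFT_32390 (scaffold 17, 179386 to 181989) had 497, 508 and 448 CPM under FW, 470.1, 457 and 461 CPM under SD and 429.9, 418 and 464 CPM under AB, against 495, 419 and 468 CPM in the controls, again with overlap of all groups. TRAVEDRAFT_47305, TRAVEDRAFT_140206, TRAVEDRAFT_31948, TRAVEDRAFT_67970 and TRAVEDRAFT_157292 followed, with highest over lowest CPM of 1.22 to 1.23 and mean levels of 118 to 489 CPM.

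Small shifts between groups remained inside the limit. The highest of the 4 group means was 1.22 times the lowest at the median of the 156 genes and 1.43 times at most. On the log2 scale the 3-day differences of group means from control ran from -0.35 to 0.42 under FW (median 0.0012), from -0.30 to 0.49 under SD (median 0.065) and from -0.52 to 0.44 under AB (median 0.043). FW had the highest of the 4 group means in 17 genes, SD in 57, AB in 52 and control in 30. FW had the lowest in 49 genes, SD in 12, AB in 44 and control in 51. Among the other 997 abundant genes FW was highest in 167, SD in 188, AB in 392 and control in 250. There FW was lowest in 252, SD in 87, AB in 322 and control in 336. All these counts are in plain CPM and were not redone with TMM factors.

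Single libraries set many of the extremes of the set. FW replicate 3 was the lowest of the 12 libraries for 40 of the 156 genes and the highest for 2, and SD replicate 3 was the highest for 25 and the lowest for 1. Among the other 997 abundant genes FW replicate 3 was the lowest for 151 and the highest for 78. SD replicate 3 was the highest there for 55 and the lowest for 20. The SD libraries also had the highest TMM factors of the main batch, all above 1.07, against 0.930 to 1.001 in the controls. With TMM-scaled library sizes the median difference of the set under SD was -0.11 in place of 0.065, while FW and AB moved by less than 0.01. The median of the other abundant genes under SD moved alike, from 0.072 to -0.11. Under that scaling 121 of the 156 genes stayed in the set and 54 others entered it, for 175 in all. TRAVEDRAFT_39448 and TRAVEDRAFT_110875 were among those that left, at 1.51 and 1.54. The pooled SD within groups was 0.11 on the log2 scale at the median of the steady genes, and 0.17 in the other abundant genes, a measure that the rule also used.

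**Figure D2:**
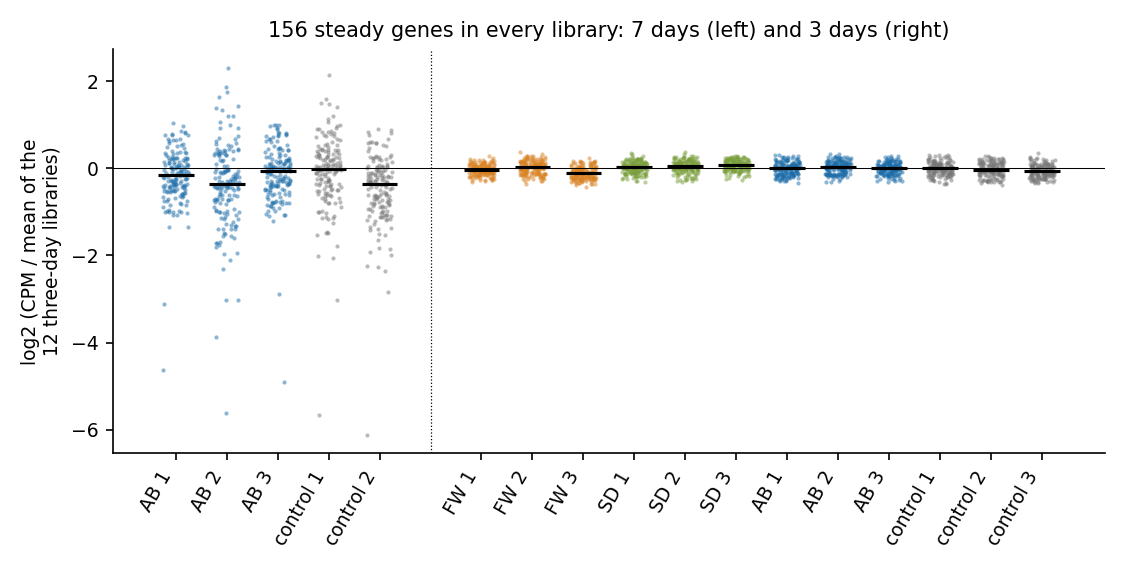
CPM of each of the 156 steady genes in every library, as log2 of its ratio to the gene's mean over the 12 main libraries; each point is a gene, the black bar is the library's median, and the dotted line divides the 7-day libraries (left) from the 3-day libraries (right). Library medians lie between -0.37 and -0.028 at 7 days and between -0.12 and 0.084 at 3 days, where the rule confines the points.

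Whether the 156 genes hold level beyond the libraries that chose them was asked in the 7-day batch, with AB against control. All 156 passed the filter on low counts there. In edgeR's quasi-likelihood test none of them was called at an adjusted p of 0.05 (Benjamini-Hochberg), where 3.28% of all 10192 genes tested were called (334 genes) and 12 of the 997 other abundant genes. At an unadjusted p of 0.05 it was 12 of the 156, or 7.69%, against 14.6% of the other abundant genes and 21.1% of all genes tested. The lowest adjusted p of the set was 0.0689. limma-voom called none of the 156 and 3.09% of all genes, and DESeq2 called 4 of the 156 and 13.4% of all genes. Without AB replicate 2, edgeR called 3 of the 156 and 6.84% of all genes. Without control replicate 2 it called no gene at all, so a count of 0 in the set says little about any single gene.

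The interval of the difference bears more directly on level expression. The 95% interval of the log2 fold change (limma-voom) lay within 1.5-fold either way for none of the 156 genes. The narrowest interval had a half-width of 0.65 on the log2 scale, wider than a 1.5-fold limit allows, so with all 5 libraries no gene could have met it. Within 2-fold either way it lay for 49 genes (31.4%), against 11.2% of all genes tested and 9.93% of the other abundant genes. That count was 79 without AB replicate 2, and 0, 1, 6 and 8 without AB replicate 1, AB replicate 3, control replicate 1 and control replicate 2. It thus rests on which libraries are used. The fitted log2 fold changes themselves had a median of 0.094 in the set, -0.0059 over all genes tested and 0.041 in the other abundant genes. On plain column sums, without TMM factors, the median of the set was -0.011. They were under 2-fold for 143 of the 156 genes (91.7%) and under 1.5-fold for 119 (76.3%). Most other abundant genes were too, 82.4% under 2-fold and 61.4% under 1.5-fold.

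**Figure D3:**
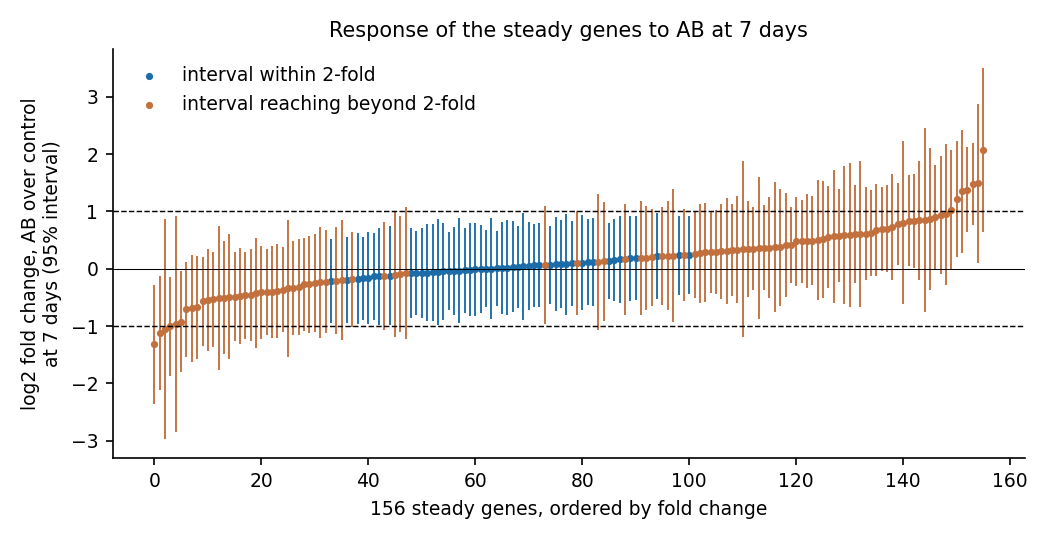
Log2 fold change of AB over control at 7 days (limma-voom, points) with its 95% interval (lines) for the 156 steady genes in order of their fold change; dashed lines mark a 2-fold change either way. The 49 blue intervals lie within 2-fold and the orange ones reach beyond it, on both sides of 0.

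The spread over all 5 libraries at 7 days was measured the same way as at 3 days. The highest over lowest CPM was below 1.5 for 35 of the 156 genes (22.4%) and below 2 for 83 (53.2%). In the other 997 abundant genes it was below 1.5 for 64 (6.42%) and below 2 for 287 (28.8%). The medians were 1.91 in the set and 2.52 in the other abundant genes. So 121 of the 156 genes did not hold the 1.5 limit at 7 days. Both shares rose with any single library left out, a direction fixed in advance, since a highest over lowest can only fall or stay with fewer libraries. Only the size of the rise differed between libraries. Without AB replicate 2 it was 59 of the 156 genes (37.8%) against 214 of the other abundant genes (21.5%). The ratio of the 2 shares was then smaller, while their difference in percentage points was not. Without control replicate 1 it was 60 (38.5%) against 163 (16.3%), and without control replicate 2 it was 53 (34.0%) against 129 (12.9%). With TMM-scaled library sizes it was 43 (27.6%) against 94 (9.43%). Among AB libraries alone 96 of the 156 genes (61.5%) kept within 1.5, against 33.2% of the other abundant genes. Between the 2 controls 97 (62.2%) did, near the 55.8% of the other abundant genes. One range covers 3 AB libraries and the other 2 controls, so they are not on one scale. Control replicate 1 was the highest library for 66 genes, while AB replicate 2 was the lowest for 64 and control replicate 2 for 61. Among the other 997 abundant genes these counts were 359, 464 and 232. The same 3 libraries carried the outlying scaling factors or distances given above, and their part in the spread was not tested beyond leaving each out.

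**Figure D4:**
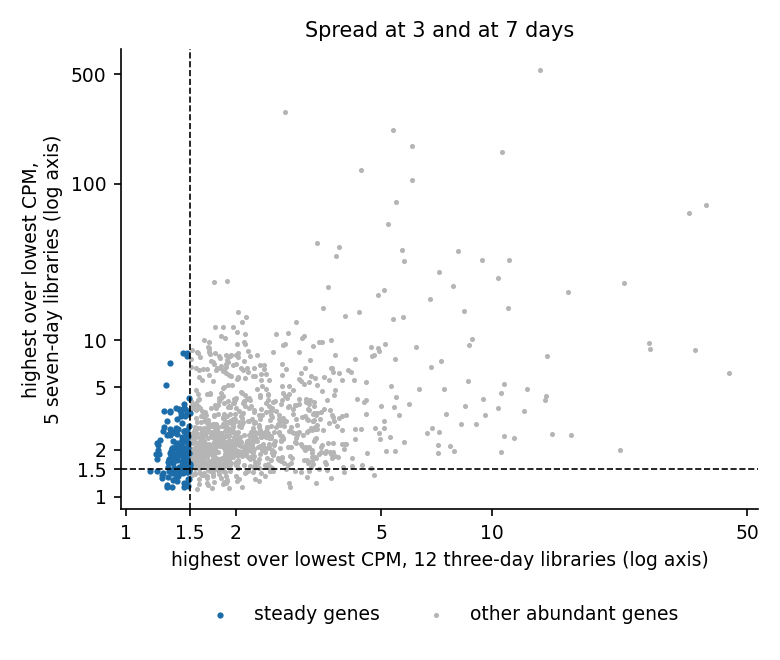
Highest over lowest CPM over the 5 libraries of the 7-day batch (vertical, log axis) against that over the 12 main libraries (horizontal, log axis) for the 1153 abundant genes; dashed lines mark 1.5 on both axes. Of the 156 steady genes (blue, left of the vertical line), 35 also lie below the horizontal line, as do 64 of the 997 others (grey).

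In plain CPM some of the 156 genes were level within each batch. These picks depend on the scaling, since the TMM factors of the 7-day controls were 1.24 and 0.861. With those factors the controls of TRAVEDRAFT_142741, TRAVEDRAFT_66022 and TRAVEDRAFT_146382 lay further apart than the CPM given here. TRAVEDRAFT_142741 (scaffold 3, 260783 to 262524, 9 exons) had the narrowest spread at 7 days, with 173, 159 and 182 CPM under AB, against 181 and 165 CPM in the controls, a highest over lowest of 1.15. At 3 days it had 118, 107 and 137 CPM under FW, 124, 130.4 and 134 CPM under SD and 116, 127 and 116 CPM under AB, against 131, 132 and 138 CPM in the controls. AB and control overlapped at 7 days, and its interval was -0.66 to 0.79 (log2 fold change). All 5 of its 7-day libraries lay above all 12 of its 3-day libraries. TRAVEDRAFT_66022 (scaffold 9, 697591 to 701283, 6 exons) had 112, 129 and 118 CPM under AB, against 125 and 127 CPM in the controls at 7 days, with overlap and an interval of -0.77 to 0.76. At 3 days it had 153, 136 and 141 CPM under FW, 125, 149 and 152 CPM under SD and 114, 122 and 119 CPM under AB, against 142, 122 and 139 CPM in the controls, again with overlap of AB and control. TRAVEDRAFT_146382 (scaffold 4, 2230840 to 2234455, 9 exons) had 507, 454 and 479 CPM under AB, against 468 and 539 CPM in the controls at 7 days. At 3 days it had 529, 499 and 499.7 CPM under FW, 541, 487 and 534 CPM under SD and 441, 446 and 453 CPM under AB, against 481, 416 and 441 CPM in the controls, so that the FW and SD libraries all lay above the 3 controls and AB overlapped with them. TRAVEDRAFT_162520, TRAVEDRAFT_31534, TRAVEDRAFT_114493, TRAVEDRAFT_170487 and TRAVEDRAFT_39448 completed the 8 genes of narrowest spread at 7 days, all at 1.27 or less.

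Level within a batch did not mean the same level in both. Over the 2 batches together only 7 of the 156 genes kept their highest over lowest CPM below 1.5 in all 17 libraries: TRAVEDRAFT_146382 (1.299), TRAVEDRAFT_66022 (1.36), TRAVEDRAFT_39448 (1.39), TRAVEDRAFT_29759, TRAVEDRAFT_149078, TRAVEDRAFT_108668 and TRAVEDRAFT_18580 (the last 4 at 1.48 to 1.49). They averaged 131 to 483 CPM over the 17 libraries. With TMM factors computed over the 17 libraries together, an alternative chosen after seeing the data, 7 genes also passed, but none of them was among these 7. The highest over lowest of the 7 listed genes was 1.73 to 2.39 on that scale. The 7-day factors were then 0.689 to 0.971 and the 3-day factors 1.02 to 1.247, and the median log2 ratio of the 7-day over the 3-day mean of the 156 genes was 0.30, where plain CPM gave -0.18. Time and batch cannot be told apart in this comparison.

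TRAVEDRAFT_61450 (scaffold 16, 102566 to 105105, 10 exons), named after its values were seen, was the extreme case. At 7 days it had 5.74, 2.89 and 4.74 CPM under AB, against 2.79 and 2.04 CPM in the controls. At 3 days it had 162, 169 and 136 CPM under FW, 164, 145 and 162 CPM under SD and 145, 139 and 131 CPM under AB, against 118, 114 and 117 CPM in the controls. Every 7-day library lay under 6 CPM and every 3-day library above 113 CPM, a log2 ratio of the 7-day over the 3-day mean of -5.28, or -4.79 with the factors over 17 libraries. TRAVEDRAFT_110875 (scaffold 1, 177982 to 178573, 4 exons) came next. It had 13.3, 7.92 and 15.6 CPM under AB, against 14.2 and 16.0 CPM in the controls at 7 days. At 3 days it had 115, 130.3 and 113 CPM under FW, 109, 121 and 101 CPM under SD and 104, 116 and 114 CPM under AB, against 104, 139 and 116 CPM in the controls. The log2 ratio of its means was -3.104, or -2.61 with those factors. Both genes were low in both groups at 7 days. At 3 days all 9 aqueous-phase libraries of TRAVEDRAFT_61450 lay above its 3 controls, inside the limit of 1.5, while the groups of TRAVEDRAFT_110875 overlapped. In plain CPM 143 of the 156 genes had a 7-day mean within 2-fold of their 3-day mean, 11 lay lower and 2 higher, against 740, 207 and 50 of the 997 other abundant genes. With the factors over 17 libraries these counts were 133, 3 and 20, against 760, 100 and 137 of the others. The 20 higher (12.8%) were then near the share of the others (13.7%). The 2 higher in plain CPM were TRAVEDRAFT_147356 and TRAVEDRAFT_165970, named after their values were seen, at log2 ratios of 1.02 and 1.19.

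The largest positive 7-day differences under AB, none of them called by edgeR, began with TRAVEDRAFT_138897 (scaffold 1, 1773556 to 1777496, 15 exons). It had 243, 91.6 and 409 CPM under AB, against 51.2 and 51.7 CPM in the controls, a mean of 248 ± 159 CPM (SD, n = 3) against 51.5 ± 0.311 CPM (n = 2) (log2 fold change 2.302, SE 0.66, adjusted p = 0.122, edgeR). The groups did not overlap, although AB replicate 2 was less than 2-fold above the controls. At 3 days the same gene had 169.9, 224 and 166 CPM under FW, 228, 177 and 197 CPM under SD and 244, 223 and 234 CPM under AB, against 219, 168 and 221 CPM in the controls, and the AB libraries lay above the controls there too, by little. Without AB replicate 2 its adjusted p was 0.0356, and with DESeq2 it was 0.00508.

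TRAVEDRAFT_167792 (scaffold 6, 666298 to 669701, 3 exons) had the lowest adjusted p of the set. It had 141, 183 and 146 CPM under AB, against 67.3 and 51.6 CPM in the controls, without overlap (log2 fold change 1.49, SE 0.33, adjusted p = 0.0689, edgeR), and its interval was 0.77 to 2.196. At 3 days it had 152, 166 and 136 CPM under FW, 155, 161 and 161 CPM under SD and 145, 143 and 139 CPM under AB, against 158, 113 and 123 CPM in the controls, so that the 7-day controls lay under every 3-day library while the 7-day AB libraries overlapped with them. Its adjusted p was 0.0456 without AB replicate 2 and 0.00069 with DESeq2. TRAVEDRAFT_169786 (scaffold 7, 1964952 to 1968616) had 205, 101 and 230.5 CPM under AB, against 63.3 and 74.3 CPM in the controls (log2 fold change 1.398, SE 0.47, adjusted p = 0.164, edgeR), the same order of groups, and DESeq2 gave an adjusted p of 0.0483. TRAVEDRAFT_35803 (scaffold 4, 284920 to 287704) had 383, 952 and 284 CPM under AB, against 244 and 132 CPM in the controls (log2 fold change 1.68, SE 0.65, adjusted p = 0.208, edgeR), where AB replicate 2 alone stood far above the rest. TRAVEDRAFT_156890 was the fourth gene that DESeq2 called, with a log2 fold change of 1.41 (adjusted p = 0.00299), and TRAVEDRAFT_38325 the third that edgeR called without AB replicate 2 (log2 fold change 1.38, adjusted p = 0.0452). All the calls made by these alternatives were higher under AB.

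The largest negative differences were in TRAVEDRAFT_25981, TRAVEDRAFT_62004, TRAVEDRAFT_26696 and TRAVEDRAFT_138592. TRAVEDRAFT_25981 (scaffold 1, 3855850 to 3858063) had 119, 59.4 and 111 CPM under AB, against 227 and 254 CPM in the controls at 7 days (log2 fold change -1.29, SE 0.41, adjusted p = 0.151, edgeR). At 3 days its AB libraries all lay above the controls, at 190.4, 186 and 179.5 CPM against 135, 161 and 137 CPM. TRAVEDRAFT_62004 (scaffold 1, 2086481 to 2089432) had 287, 166 and 296 CPM under AB, against 533 and 568 CPM in the controls (log2 fold change -1.102, SE 0.41, adjusted p = 0.193, edgeR), the groups apart. TRAVEDRAFT_26696 (scaffold 2, 3191855 to 3193479), one of the 8 genes with most counts, had 696, 532 and 681 CPM under AB, against 1887 and 955 CPM in the controls (log2 fold change -1.02, SE 0.39, adjusted p = 0.202, edgeR), where both controls lay above AB and control replicate 1 was close to 2 times control replicate 2. TRAVEDRAFT_138592 (scaffold 1, 1313690 to 1315521) had 132, 135 and 152 CPM under AB, against 458 and 173 CPM in the controls (log2 fold change -0.996, SE 0.37, adjusted p = 0.192, edgeR), again with control replicate 1 far above control replicate 2. It overlaps a gene model on the opposite strand, whose reads may be counted with it, since the strand setting is not given in the sources used here.

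Over the whole set the 7-day AB libraries lay above both controls in 24 genes (15.4%) and below both in 17 (10.9%), where all genes tested gave 15.2% and 20.9%. With TMM-scaled CPM the set had 33 (21.2%) and 19 (12.2%), against 19.3% and 21.3% of all genes tested and 19.5% and 16.0% of the other abundant genes. The share above both controls was thus near that of all genes on either scale. The 156 genes together held 4.86%, 4.88% and 4.98% of the counts in the AB libraries at 7 days, against 5.69% and 4.14% in the controls. In the main libraries they held 4.96% to 5.56%. Over all 17 libraries the sum ran from 4.14% to 5.69%, both in 7-day controls, and the rule confined it at 3 days. The other 997 abundant genes together held 56.5% to 62.5%. The 2 sums cover unequal numbers of genes and unequal parts of the total, so their bands are not on one scale.

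**Figure D5:**
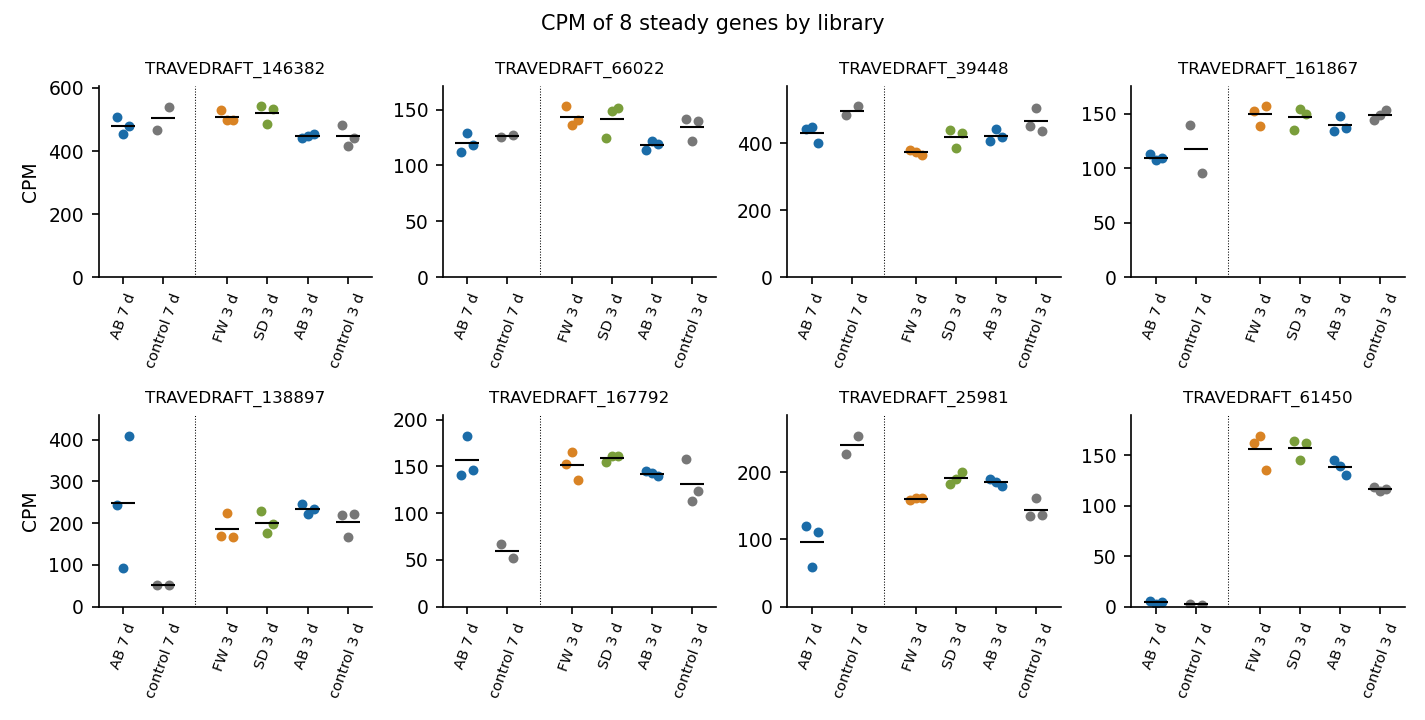
CPM of 8 steady genes in every library (points) with the group mean (bars); AB and control at 7 days stand left of the dotted line, FW, SD, AB and control at 3 days right of it, and each vertical axis starts at 0. In plain CPM TRAVEDRAFT_146382, TRAVEDRAFT_66022 and TRAVEDRAFT_39448 stay near one level. With TMM factors over the 17 libraries their highest over lowest was 2.05, 1.73 and 2.39. TRAVEDRAFT_161867 has 95.8 to 140 CPM at 7 days and 134 to 157 CPM at 3 days. TRAVEDRAFT_138897 and TRAVEDRAFT_167792 have 7-day controls below 7-day AB, TRAVEDRAFT_25981 has them above, and TRAVEDRAFT_61450 is under 6 CPM in all 7-day libraries.

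The rule did not use gene structure or position. The gene models of the set had a median length of 1870.5 bases, against 1682 in the other abundant genes and 1169 in all 14296 models. The median number of exons was 6.5 in the set, 6 in the other abundant genes and 4 in all models. Only TRAVEDRAFT_114259, named after its value was seen, had a single exon (0.641%), as 1.71% of the other abundant genes and 10.2% of all models had. It was also the shortest model, at 195 bases, and TRAVEDRAFT_144288 the longest, at 13110 bases with 32 exons. The plus strand held 77 of the 156. Thus length and exon number lay close to those of other abundant genes and apart from the average model.

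The 156 genes lay on 16 scaffolds, most on scaffold 1 (28 genes), scaffold 3 (23), scaffold 4 (18) and scaffold 2 (17), which also hold the most abundant genes. By share of the abundant genes on a scaffold, scaffold 14 had 5 of 13 (38.5%), while scaffolds 1, 3, 4 and 2 had 12.2% to 15.6%. Members stood within 3 gene models of one another in 5 cases and next to one another in 3. TRAVEDRAFT_165970 and TRAVEDRAFT_57963 on scaffold 4 lie 152 bases apart on the minus strand. At 3 days they averaged 128 and 117 CPM over the 12 libraries. At 7 days TRAVEDRAFT_165970 had 229.8, 206 and 242 CPM under AB, against 562 and 219 CPM in the controls, while TRAVEDRAFT_57963 had 184, 145 and 197 CPM under AB, against 121 and 105 CPM in the controls, so that the mean differences of these neighbours had opposite signs, without a call for either (adjusted p = 0.406 and 0.275, edgeR). The other adjacent pairs were TRAVEDRAFT_125666 with TRAVEDRAFT_124939 on scaffold 7, 559 bases apart with ends facing each other, and TRAVEDRAFT_144172 with TRAVEDRAFT_115884 on scaffold 3, 581 bases apart on the minus strand. TRAVEDRAFT_115884 is short (375 bases), and AB replicate 2 at 7 days had 42.4 CPM of it, far under its other 4 libraries at 187 to 349.7 CPM. TRAVEDRAFT_36458 lies 3 models from TRAVEDRAFT_165970.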

How the data were processed

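The deposited values are counts per gene model, not normalised, per the file headers and the whole-number values, and per the submitters' processing notes the tools were HISAT2 and featureCounts. No source used here gives a version, a build, strandedness or how multimapping reads were counted. Per the labels' protocols, 200 ng of RNA per sample went into polyA libraries. CPM was computed on column sums, as the rule asks. Gene names came from the RefSeq table of Trametes versicolor v1.0, in which 14214 of 14296 models matched by start and end. The table gives model positions without scaffold names, so a match rests on start and end alone.

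The 7-day comparison used edgeR 4.0.16 in R 4.3.3 (TMM, default filter on low counts by group, quasi-likelihood F test, two-sided, Benjamini-Hochberg over 10192 genes), on 3 AB and 2 control libraries with 3 residual degrees of freedom and a biological coefficient of variation of 0.455. The SE was back-computed from the F statistic. Intervals came from limma-voom (limma 3.58.1). Alternatives were DESeq2 1.42.0, RLE factors, no filter, a replicate block and leaving out each library. The code was tested on data simulated with a lower coefficient of variation than these libraries had. That test does not show how often a change is found, or an interval holds the true value, at the variation seen here. No label ties the replicates to separate cultures beyond calling them biological, so p-values reflect only the spread among these libraries.

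Genes named were those with most counts, narrowest at 3 or 7 days, nearest the limits, with the 4 highest and lowest 7-day fold changes, and the 4 nearest pairs of neighbours. LDO1, the genes steady over 17 libraries, those called by an alternative, those with extreme structure and those so marked were named after their values were seen. The members and lists were chosen with earlier results of these data known. No list of basic cell machinery could be formed, and no sequence of these genes was used here.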

Additional observations from a re-analysis of the deposited data

Results flagged for a closer look

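2 of the named genes had AB libraries entirely above the controls at 3 days and entirely below them at 7 days in plain CPM. TRAVEDRAFT_25981 was named for its low 7-day fold change, so its 7-day order came with that choice. TRAVEDRAFT_68660 was named for lying just inside the limit on highest over lowest CPM at 3 days. A wide 3-day spread between its libraries thus came with its choice. At 7 days alone AB lay below both controls in 17 of the 156 genes (10.9%) and in 20.9% of all genes tested. Genes with both orders were not counted over the 156 or over all genes, so whether 2 exceeds the background is not known. The difference between the times was not tested, since the 3-day values chose the genes. For TRAVEDRAFT_25981 the 7-day log2 fold change was -1.29 (edgeR, adjusted p = 0.151), and its groups stayed apart at 7 days with TMM-scaled CPM too. For TRAVEDRAFT_68660 the 7-day log2 fold change was -0.19 (adjusted p = 0.791). It had 131, 94.3 and 134 CPM under AB, against 135 and 147 CPM in the controls at 7 days and 229.5, 205 and 202 CPM under AB at 3 days, against 158, 187 and 153 CPM in the 3-day controls. With TMM-scaled CPM its 7-day groups overlapped.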

How the results depend on the processing

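The set held 175 genes with TMM-scaled and 171 with RLE-scaled library sizes, sharing 121 and 117 with the 156. A floor of 50 or 200 CPM gave 286 or 73 genes, and a limit of 1.4 or 1.6 gave 75 or 256, as each choice admits more or fewer genes. Leaving out 1 main library gave 160 to 196, where fewer libraries can only keep or add genes. At 7 days the 156 genes had 0 calls with RLE factors, limma-voom, no filter, a 2-fold minimum and the replicate block, 4 with DESeq2, and 0 to 3 with 1 library left out. Over all genes DESeq2 called 1360, the replicate block 91, and edgeR without 1 library 0 to 689, against 334. Same-numbered AB and control libraries had correlations of deviations of -0.206 and -0.161 across genes. With 2 controls each AB library has equal and opposite values with them, so this cannot settle whether the numbers pair the libraries. With the block 0 intervals lay within 2-fold. The count of 7-day spreads below 1.5 ran from 36 to 60 without 1 library, where it can only stay or rise, and 83 lay below a limit of 2. Intervals within 1.5-fold numbered 0 to 1 without 1 library, and 49 lay within 2-fold. The median 7-day log2 fold change was -0.011 on plain column sums, whose totals take no account of composition, and 0.056 to 0.22 without 1 library. Where 1 control was left, it was assumed to vary like the AB libraries. Of 440 alternative values for the 44 named genes 6 passed the threshold, all in the same direction, and 47 changed sign without a call, all of genes whose log2 fold change was within 0.26 of 0. The cause was not tested where none is given. Counting error was computed for the 3-day libraries only.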

Other observations

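Applied to the 5 libraries of the 7-day batch alone, the same 2 conditions (100 CPM or more in each, highest over lowest below 1.5) were met by 29 of the 156 steady genes and by 58 of the 997 other abundant genes. All 5 libraries had 100 CPM or more for 111 of the 156 genes (71.2%) and for 622 of the 997 others (62.4%). The widest 7-day spreads of the set, named after their values were seen, were in TRAVEDRAFT_172975 (8.30), TRAVEDRAFT_115884 (8.24) and TRAVEDRAFT_138897 (7.98).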
